A study of Mus musculus with 55 samples.

Results

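The 8 genes described here encode surface proteins by which mouse blood stem and progenitor cells are sorted or typed: Kit (cKit), Ly6a (Sca-1), Cd34 (CD34), Fcgr3 (CD16), Fcgr2b (CD32), Cd48 (CD48), Ptprc (CD45) and Thy1 (CD90). They were taken by symbol as 8 of the 55421 rows of a table of read counts per gene. The table holds 46 bulk RNA-seq libraries of 6 populations sorted from mouse bone marrow: long-term (LT-HSC) and short-term (ST-HSC) hematopoietic stem cells and 4 kinds of progenitor, namely common myeloid (CMP), common lymphoid (CLP), granulocyte-macrophage (GMP) and megakaryocyte-erythroid (MEP). Each population was sorted from wildtype (WT) and Tet2-/- mice on the C57BL/6 background, with 4 libraries per genotype and population except in the LT-HSCs and ST-HSCs of WT mice, which have 3 each. A second table, used for values only, holds 9 more LT-HSC libraries, 3 each from WT mice, from Sting-/- mice, which lack the adaptor of the cytosolic DNA sensor cGAS, and from Tet2;Sting DKO mice, in which the Tet2 deletion was combined with Sting-/-. Tet2-/- denotes a floxed Tet2 allele removed by Mx1-Cre, a transgene whose promoter responds to interferon in many cell types, after 5 injections of poly(I:C) from 4 weeks of age. The mice of the first table were kept for 16 weeks after the injections, and the sources used here do not tie an interval to the libraries of the second. The WT mice are named as wild type, and those of the second table also as Tet2wt/wt. Whether they carried Cre or received poly(I:C) is not given in the sources used here. Libraries came from 200 cells according to the sample labels and from about 300 according to the methods.

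All 6 gates began with lineage-negative, cKit-positive cells. LT-HSCs were sorted as Sca-1 positive, CD48 negative and CD150 positive, and ST-HSCs as Sca-1 positive, CD48 negative and CD150 negative. The myeloid gates were Sca-1 negative: CMPs had CD34 at an intermediate or positive level with intermediate CD16 and CD32, GMPs were CD34 positive with high CD16 and CD32, and MEPs were CD34 negative with low CD16 and CD32. CLPs had intermediate Sca-1 and were CD127 positive. CD45 and CD90 were in no gate, although B220, an isoform of CD45, was in the lineage cocktail with CD4, CD5, CD8, Gr-1 and Ter119. A surface gate selects on protein at the membrane at the moment of sorting, whereas the counts measure RNA, and in a bulk library fewer cells with a transcript and less transcript per cell cannot be told apart.

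These proteins have well described roles. Kit is the receptor tyrosine kinase for stem cell factor and is needed for the maintenance of stem cells, mast cells and early erythroid cells. Ly6a is a GPI-anchored protein of the Ly6 family that marks mouse stem cells and activated lymphocytes, and Cd34 is a sialomucin of progenitors and endothelium that is low on quiescent mouse LT-HSCs. Fcgr3 and Fcgr2b are the activating and the inhibitory low-affinity receptors for IgG, and a single antibody clone commonly stains both. Cd48 belongs to the SLAM family and binds CD244, Ptprc is the receptor phosphatase that sets the activity of Src kinases in all nucleated blood cells, and Thy1 is a GPI-anchored protein of T cells and of some stem cells.

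Library totals ran from 50458473 to 102148079 counts. A library detected 13754 to 20964 genes, and its mitochondrial share was 2.41% to 14.5%. No libraries were identical. CLP libraries differed most among themselves: the median SD of log2 CPM within a group, over 8877 genes, was 0.80 in WT and 0.92 in Tet2-/- CLPs and lay between 0.23 and 0.52 in the other 10 groups. Tet2 RNA did not separate the genotypes, with ranges that overlapped in every population (for example 12.1 to 40.4 CPM in Tet2-/- against 11.3 to 14.3 CPM in WT LT-HSCs). Counts sum over a whole gene, so a transcript without the deleted exon is still counted, and groups are named here as labelled. Replicate numbers run across populations, and whether libraries of 1 genotype with the same number came from the same mouse is not stated, so p-values measure the spread between libraries.

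Of the genes, 5 lie on chromosome 1 (GRCm38, the mm10 assembly): Cd34 at 194938819-194961279 on the plus strand, Cd48 at 171682009-171705258 on the plus strand, and Fcgr3 at 171051174-171064935, Fcgr2b at 170958617-170976547 and Ptprc at 138062861-138175708 on the minus strand. Kit is at chr5:75574916-75656722 on the plus strand, Ly6a at chr15:74994877-74998031 on the minus strand and Thy1 at chr9:44043384-44048579 on the plus strand. The 2 Fc receptor genes share sequence. Of the 50-base stretches of Fcgr3 transcripts 9.58% also occur in Fcgr2b, and their longest identical run is 129 bases, so part of their reads could have been assigned to either gene. Ly6a shares 19% of its 50-base stretches with other genes, mostly Ly6c1. Antisense genes overlap exons of Cd34 by 148 bases and of Fcgr2b by 155 bases, and whether the counting used strand is not given in the sources used here.

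The starts of the 2 Fc receptor genes are shown because 1 antibody gate reads both, while their RNA differed in spread across the gates. The windows below, from RefSeq for GRCm38.p6, run from 250 bases before to 50 bases after the start site, 5′ to 3′ on the gene's strand. RefSeq windows were matched for 6 of the 8 genes. The RefSeq start differs from the outermost GENCODE start for both Fc receptor genes, so both windows lie inside the gene spans given above. The windows were searched on both strands for 3 motifs. GAGGAA is the core that PU.1 binds, AGATAA is read by the erythroid factor family of Gata1, and TGTGGT by the family of Runx1. In the sequences, capitals mark a match.
Fcgr3, chr1:171059354-171059653: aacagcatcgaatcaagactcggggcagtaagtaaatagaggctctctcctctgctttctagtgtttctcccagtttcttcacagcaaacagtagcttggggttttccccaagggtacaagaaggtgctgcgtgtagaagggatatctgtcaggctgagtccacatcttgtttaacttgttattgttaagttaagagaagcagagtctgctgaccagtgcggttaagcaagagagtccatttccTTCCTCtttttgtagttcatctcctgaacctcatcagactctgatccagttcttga
Fcgr2b, chr1:170976022-170976321: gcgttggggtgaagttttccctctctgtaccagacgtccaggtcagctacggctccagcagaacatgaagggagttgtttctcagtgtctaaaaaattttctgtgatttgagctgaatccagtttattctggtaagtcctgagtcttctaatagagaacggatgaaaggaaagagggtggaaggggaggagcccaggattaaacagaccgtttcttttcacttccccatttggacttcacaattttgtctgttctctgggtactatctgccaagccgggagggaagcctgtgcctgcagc
The Fcgr3 window held 1 match to GAGGAA, on the opposite strand and 6 bases before the start, and the Fcgr2b window held none of the 3 motifs. The windows of Kit and Ptprc each held 1 GAGGAA, that of Cd48 held 1 TGTGGT and that of Cd34 held none. Among 32851 promoter windows of this length GAGGAA occurred in 28.3%, AGATAA in 11.2% and TGTGGT in 16.8%, so a match is common and describes the window only.

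**Figure D1:**
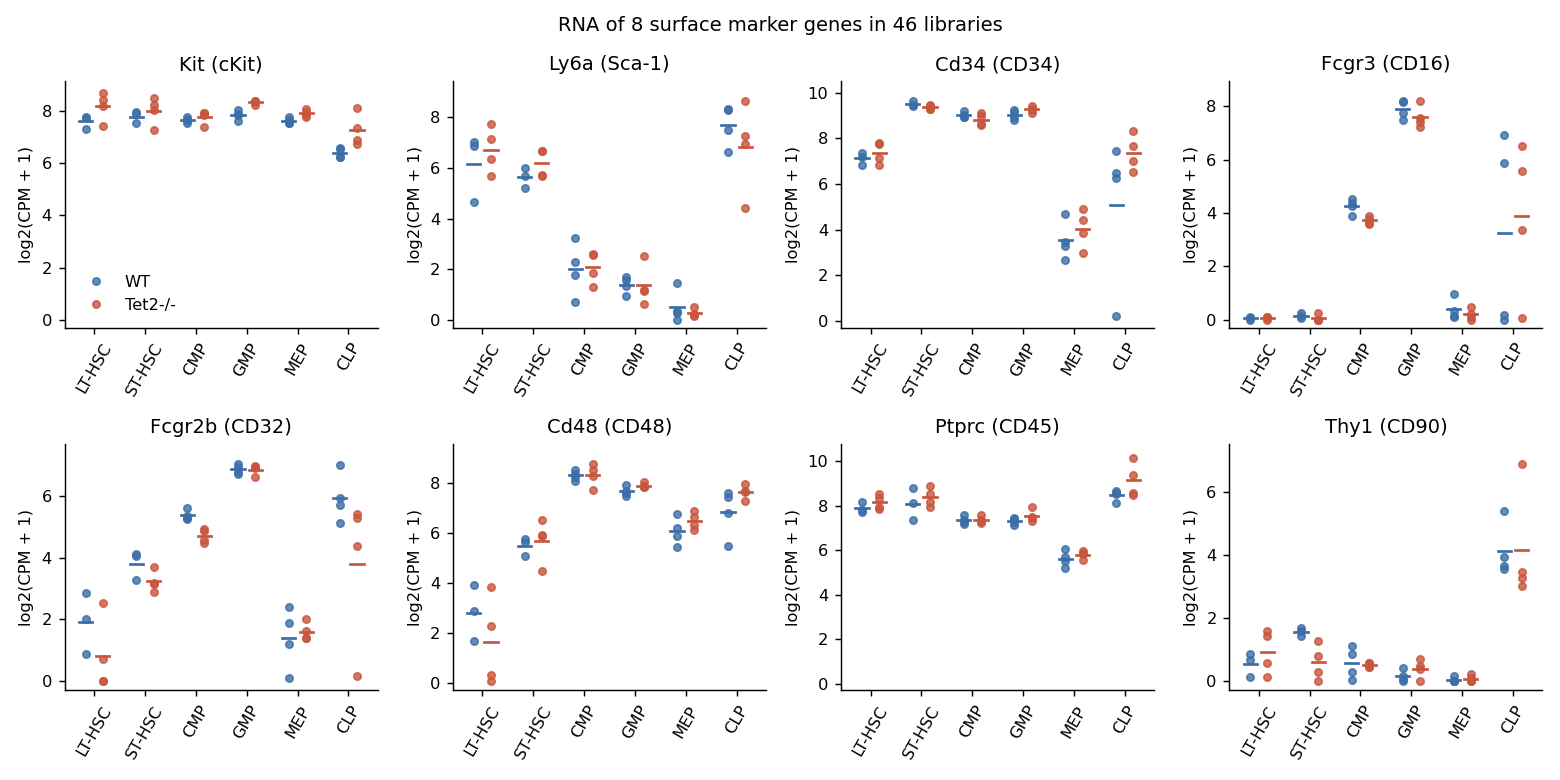
RNA of the 8 genes in the 46 libraries of 6 populations. Each point is 1 library on a log2(CPM + 1) scale, bars are group means, blue is WT and red is Tet2-/-, and the y axes differ between panels. Kit varied least across the gates, Ly6a was low in the 3 myeloid gates, Fcgr3 and Fcgr2b had their highest means in GMPs (with an overlap of WT CLPs for Fcgr2b), and Thy1 exceeded 2.19 CPM in CLP libraries only.

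To compare RNA with the gates, 7 pairs of populations were tested within each genotype with edgeR, and the threshold for a call was a change of 2-fold or more with an adjusted p under 0.05. Of 108 tests of a member, 50 were called, and 13 of these calls were lost with a replicate block, as listed in the last section. Within WT, the calls were 1 of 7 members tested for LT-HSC against ST-HSC, where 0.209% of all genes tested were called, 4 of 8 for CMP against ST-HSC (12.2% of all genes) and 4 of 8 for CLP against ST-HSC (14.9%). Among the progenitors they were 2 of 8 for GMP against CMP (13.5% of all genes), 5 of 7 for MEP against CMP (14.7%), 5 of 7 for GMP against MEP (30.4%) and 4 of 8 for CLP against CMP (15.4%). The members were chosen because surface gates differ in their products, so shares above these backgrounds are a description. Within Tet2-/-, 1 of 7 members was called for LT-HSC against ST-HSC (0.172% of all genes), 5 of 8 for CMP against ST-HSC (9.43%) and 2 of 8 for CLP against ST-HSC (7.72%). The remaining Tet2-/- pairs gave 2 of 8 for GMP against CMP (16.6% of all genes), 6 of 8 for MEP against CMP (9.96%), 6 of 8 for GMP against MEP (33.4%) and 3 of 8 for CLP against CMP (9.36%). Pairs that name the same population share its libraries. The libraries of the compared populations did not overlap for 4.77% (Tet2-/- LT-HSC against ST-HSC) to 50.5% (Tet2-/- GMP against MEP) of all genes tested, in either direction.

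Kit RNA was present in all 6 gates, each of which asked for cKit protein. In WT the means were 229 ± 26.6 CPM in GMPs, 222 ± 34.6 in ST-HSCs, 202 ± 12.3 in CMPs, 196 ± 15.1 in MEPs and 196 ± 33.9 in LT-HSCs (SD, n = 4 or 3), and each of these groups overlapped the next in order. WT CLPs stood apart at 94.7, 92.5, 74.6 and 74.0 CPM. All 4 lay below every library of the other 5 WT populations, of which the lowest had 157 CPM. Such a separation was common: WT CLPs lay wholly below WT ST-HSCs for 22.2% of all genes tested and below WT CMPs for 21.8%. Kit was lower in WT CLPs than in ST-HSCs, with a log2 fold change in edgeR of -1.35 (SE 0.20, adjusted p = 0.00939), and than in CMPs, at -1.12 (SE 0.14, adjusted p = 0.00242). The call against ST-HSCs was lost without WT ST-HSC replicate 3 (adjusted p = 0.0517) or 5 (0.0550). As differences of mean log2 CPM these values were -1.40 and -1.27 scaled, and -2.20 and -2.09 on unscaled totals. In Tet2-/- CLPs the libraries had 162, 278, 116 and 106 CPM and overlapped those of Tet2-/- CMPs (168 to 241 CPM) and ST-HSCs (152 to 364 CPM), and Kit was not called in either pair (log2 fold changes of -0.38 and -0.71, adjusted p of 0.595 and 0.349). Without Tet2-/- CLP replicate 3 these values were -0.75 and -1.08, and without replicate 5 the first was -0.20. On unscaled totals every gene of Tet2-/- CLPs shifts by -0.28 against CMPs and -0.26 against ST-HSCs.

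Between the genotypes, Kit was higher on average in Tet2-/- in all 6 populations. In GMPs the Tet2-/- libraries had 325, 328, 299 and 332 CPM and the WT libraries 235, 259, 194 and 229 CPM. In MEPs they had 218, 270, 246 and 227 against 187, 217, 198 and 183 CPM. All 4 Tet2-/- libraries lay above all 4 WT libraries in these 2 populations and in CLPs, as they did for 5.89% of all genes tested in GMPs, 4.65% in MEPs and 2.21% in CLPs. The log2 fold change was 0.45 in GMPs (SE 0.098, 1.36-fold, edgeR adjusted p = 0.0182), which passes the p but not the 2-fold part of the call. Leaving out 1 library gave adjusted p-values of 0.0206 to 0.0678 there. Other measures also separated the genotypes in GMPs without overlap: the summed level of 8 HSC markers (23.0 to 32.3 CPM in Tet2-/- and 15.2 to 20.7 CPM in WT), that of 5 endothelial markers (95.1 to 114.5 and 68.9 to 94.5 CPM) and the mitochondrial share (4.74% to 5.09% and 3.64% to 4.6%). Of the HSC markers 0 to 2 were at 0 in a library, and of the endothelial markers 1 or 2. The part of these measures in the Kit difference was not tested. In the other populations the log2 fold change of Kit was 0.28 in MEPs (SE 0.098, adjusted p = 0.171), 0.96 in CLPs (SE 0.36, adjusted p = 1), 0.65 in LT-HSCs (SE 0.31, adjusted p = 0.998), 0.32 in ST-HSCs (SE 0.28, adjusted p = 0.999) and 0.11 in CMPs (SE 0.12, adjusted p = 0.724). Without Tet2-/- CLP replicate 3 the CLP value was 0.55. In CLPs it also depended on the scaling of the library totals: the difference of mean log2 CPM was 0.88 scaled and 1.37 unscaled, because the TMM factors were 0.74 to 1.08 in Tet2-/- and 0.55 to 0.71 in WT CLPs. This moves every gene by 0.49 in that comparison and by at most 0.062 in the other populations. The ST-HSC value ran from 0.14 (without Tet2-/- ST-HSC replicate 2) to 0.52 (without replicate 4), and the CMP value from 0.061 (without Tet2-/- CMP replicate 4) to 0.21 (without replicate 5). In LT-HSCs the Tet2-/- libraries had 407, 344, 171 and 294 CPM and the WT libraries 212, 218 and 157 CPM, so 3 of 4 Tet2-/- libraries lay above every WT library and the fourth overlapped them. The 5 endothelial markers also separated these libraries, with sums of 119.3 to 143.7 CPM in Tet2-/- and 102.2 to 116.7 CPM in WT and 1 marker at 0 in each, and their part in the Kit difference was not tested.

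Averaged over the 6 populations in 1 fit of the 46 libraries, Kit was higher in Tet2-/- by 0.46 on the log2 scale (SE 0.096, 1.37-fold, edgeR adjusted p = 0.00148). Of all genes tested for this mean effect, 2.93% were higher in Tet2-/- at an adjusted p of 0.05 with no fold threshold, and 3.49% passed the 2-fold call in either direction. The value stayed between 0.40 and 0.54 when any 1 library was left out, with adjusted p-values of 0.000145 to 0.00276. Without CLPs it was 0.36 (adjusted p = 0.0387). This fit counts every library as independent. When the libraries of 1 genotype with the same replicate number were first averaged, giving 4 values against 4, the difference was 0.44 with a two-sided exact permutation p of 0.0571 (0.171 adjusted over the 8 members), which does not pass 0.05. The smallest p this permutation allows is 0.029.

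**Figure D2:**
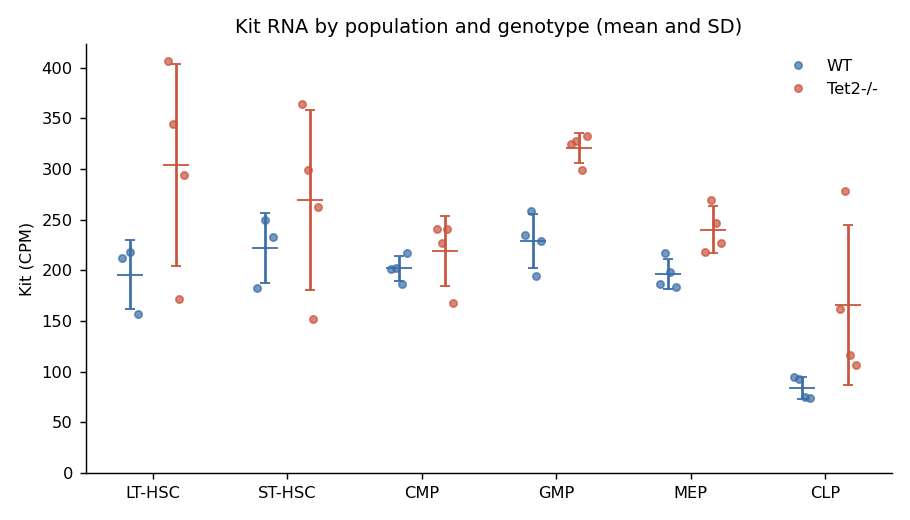
Kit RNA in CPM by population (x axis) in WT (blue) and Tet2-/- (red) libraries, with the mean and SD of each group. The WT CLP libraries (74.0 to 94.7 CPM) lie below all other libraries, and the genotypes do not overlap in GMPs, MEPs and CLPs.

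Kit and the genes around it in its signalling path were given by a list of 16 genes, of which 15 were tested in each population. Kitl, the ligand, was at 0 in all groups except WT LT-HSCs, where 1 of 3 libraries had 5.42 CPM and the others 0. Between the genotypes no gene of the list was called in LT-HSCs (0.0245% of all genes were called), ST-HSCs (0.0185%) or CLPs (0.00766%). There was 1 call in CMPs (4.57% of all genes), 2 in GMPs (4.37%) and 1 in MEPs (4.36%), all lower in Tet2-/-. They were Ptpn11, the phosphatase SHP2 that carries the signal of Kit to Ras, with log2 fold changes of -1.14 (SE 0.23, adjusted p = 0.0161) in CMPs, -1.23 (SE 0.24, adjusted p = 0.00985) in GMPs and -1.24 (SE 0.25, adjusted p = 0.0202) in MEPs, and Sh2b3, the adaptor LNK that dampens Kit and JAK2, at -1.22 (SE 0.32, adjusted p = 0.0449) in GMPs. In GMPs Ptpn11 had 13.3 ± 3.55 CPM against 30.6 ± 7.33 in WT, and Sh2b3 had 11.1 ± 1.02 against 25.4 ± 12.2 CPM (SD, n = 4). The libraries of these calls also separated by genotype in other measures, given with Kit for GMPs (HSC and endothelial markers and mitochondrial share) and with Fcgr2b for CMPs (erythroid and neutrophil markers and mitochondrial share), while in MEPs no marker list separated them. The part of these measures in the Ptpn11 and Sh2b3 differences was not tested. The median log2 difference over the 15 list genes was 0.16 in GMPs, 0.22 in MEPs, 0.073 in ST-HSCs and 0.015 in LT-HSCs. It was -0.14 in CMPs and -0.15 in CLPs. Over all genes the medians were 0.026 to 0.074. Most calls in the 3 myeloid populations were lower in Tet2-/-, with 629 of 734 in CMPs, 672 of 723 in GMPs and 629 of 651 in MEPs.

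Ly6a RNA followed the Sca-1 gates on the side of the myeloid progenitors. Its means in WT were 88.7 ± 56.5 CPM in LT-HSCs and 49.4 ± 13.1 in ST-HSCs (SD, n = 3), against 3.86 ± 3.38 in CMPs, 1.66 ± 0.557 in GMPs and 0.563 ± 0.816 in MEPs (n = 4). In Tet2-/- they were 120 ± 69.7, 75.4 ± 28.2, 3.51 ± 1.78, 1.96 ± 1.91 and 0.219 ± 0.151 CPM in the same order. Every Sca-1 positive stem cell library lay above every Sca-1 negative library of its genotype. For CMPs against ST-HSCs, 15.6% of all genes tested in WT and 9.84% in Tet2-/- were lower without overlap. In Ly6a, CMPs were lower than ST-HSCs by a log2 fold change of -3.67 in WT (SE 0.75, edgeR adjusted p = 0.0141) and -4.44 in Tet2-/- (SE 0.49, adjusted p = 0.00143). Among the 3 Sca-1 negative gates MEPs had the lowest mean of Ly6a. In Tet2-/- the log2 fold change was -3.86 for MEPs against CMPs (SE 0.68, adjusted p = 0.00525) and 2.94 for GMPs against MEPs (SE 0.80, adjusted p = 0.0139), the latter lost without Tet2-/- GMP replicate 3 (2.01, adjusted p = 0.0545). In WT the values of these pairs were -2.73 (SE 1.30, adjusted p = 0.160) and 1.42 (SE 1.13, adjusted p = 0.344), and neither was called. Without WT MEP replicate 3, at 1.77 CPM the highest MEP library, both were called (-4.39 and 3.09, adjusted p of 0.0420 and 0.0376), and the first was called in the fit of all 46 libraries (0.0439). LT-HSCs and ST-HSCs overlapped, with a log2 fold change of 0.82 in WT (SE 0.57, adjusted p = 0.839), which ran from 0.47 (without WT LT-HSC replicate 3) to 1.27 (without replicate 2).

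CLPs, whose gate asked for intermediate Sca-1, had the highest mean of Ly6a RNA and overlapped LT-HSCs in both genotypes. In Tet2-/- CLPs ranked first only with replicate 4 counted. The WT libraries had 98.5, 305, 314 and 180 CPM and the Tet2-/- libraries 122, 20.4, 393 and 149 CPM. Of the 4 WT CLP libraries, 3 lay above the highest WT LT-HSC library (127 CPM), whereas Tet2-/- CLP replicate 3 was below every stem cell library of its genotype. Against ST-HSCs Ly6a was higher in WT CLPs, with a log2 fold change in edgeR of 2.26 (SE 0.48, adjusted p = 0.0205). That call was lost without WT ST-HSC replicate 2, 3 or 5 (adjusted p of 0.0847, 0.0794 and 0.0804) and in the fit of all 46 libraries (0.0716), and the difference of mean log2 CPM was 2.07 scaled and 1.28 on unscaled totals. In Tet2-/- it was 1.17 (SE 0.71, adjusted p = 0.415), and 0.36 without Tet2-/- CLP replicate 4. Against CMPs the values were 6.02 in WT (SE 0.87, adjusted p = 0.00377) and 5.61 in Tet2-/- (SE 0.92, adjusted p = 0.0130), the latter lost without Tet2-/- CMP replicate 5 (adjusted p = 0.0507). Between the genotypes Ly6a was called in no population, and its groups overlapped in all 6.

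In the Ly6 family, 13 genes of which 4 to 8 passed the filter in a genotype comparison, no gene was called between the genotypes. In CLPs against CMPs 6 of 7 tested family genes were called higher in WT (Ly6a, Ly6c1, Ly6c2, Ly6d, Ly6e and Ly6k) and 4 of 6 in Tet2-/- (Ly6a, Ly6c2, Ly6d and Ly6e), where 15.4% and 9.36% of all genes were called in either direction. The family's medians in these comparisons were 5.37 and 4.77, against -0.050 and 0.0030 over all genes. Ly6d marks lymphoid progenitors on the way to B cells, and Ly6c2 encodes an antigen of monocytes and of some lymphoid cells. Since Ly6a and Ly6c1 share sequence, reads of one may have entered the count of the other, and this was not tested.

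Cd48 RNA was lower in every LT-HSC library than in the ST-HSC libraries of its genotype, without passing the call. Both gates were CD48 negative. The WT LT-HSC libraries had 2.16, 6.35 and 13.97 CPM and the WT ST-HSC libraries 32.6, 49.1 and 53.7 CPM. In Tet2-/- the values were 0.243, 13.3, 0.0626 and 3.87 CPM for LT-HSCs and 21.2, 58.0, 89.6 and 58.7 CPM for ST-HSCs. The 2 populations did not overlap in either genotype, with LT-HSCs lower, as held for 7.9% of all genes tested in WT and 2.09% in Tet2-/-. The log2 fold changes of -2.62 in WT (SE 0.64, edgeR adjusted p = 0.197) and -3.74 in Tet2-/- (SE 1.28, adjusted p = 0.709) were nevertheless not called, and the two-sided exact permutation p was 0.10 with 3 against 3 libraries and 0.029 with 4 against 4, the smallest possible in each case. DESeq2 called both (adjusted p of 0.00121 and 0.0374), and the fit of all 46 libraries called the Tet2-/- value (edgeR adjusted p = 0.0167). ST-HSCs overlapped MEPs (42.2 to 106 CPM in WT and 67.6 to 115 in Tet2-/-) and the lowest WT CLP library (44.1 CPM), and lay below every CMP and GMP library of their genotype. For CMPs against ST-HSCs, 17.9% of all genes tested in WT and 13.1% in Tet2-/- were higher without overlap. ST-HSCs were not tested against MEPs. Cd48 was higher in CMPs (319 ± 40.8 CPM in WT and 330 ± 94.5 in Tet2-/-) than in ST-HSCs by 2.82 (SE 0.20, adjusted p = 0.000297) and 2.51 (SE 0.41, adjusted p = 0.00579) on the log2 scale.

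Among the progenitors, none of which was gated on CD48, the order was CMPs, GMPs (204 ± 25.1 in WT and 238 ± 17.8 CPM in Tet2-/-), CLPs (129 ± 66.4 and 200 ± 39.2 CPM) and MEPs (70.0 ± 27.4 and 90.3 ± 21.4 CPM; SD, n = 4). For MEPs against CMPs the log2 fold change was -2.20 in WT (SE 0.27, edgeR adjusted p = 0.000525) and -1.87 in Tet2-/- (SE 0.25, adjusted p = 0.00145). In the fit of all 46 libraries these adjusted p-values were 0.0534 and 0.131. GMPs were above MEPs by 1.45 and 1.32 (SE 0.25 and 0.17, adjusted p of 0.00110 and 0.000198, or 0.137 and 0.163 in the fit of all 46 libraries). Between GMPs and CMPs the WT libraries did not overlap, with GMPs lower, as held for 14.7% of all genes tested. The log2 fold change of -0.61 (SE 0.12, adjusted p = 0.00419) stayed under 2-fold. Cd48 was also higher in Tet2-/- CLPs than in Tet2-/- ST-HSCs, at 1.81 (SE 0.41, adjusted p = 0.0321), a call that was lost in 7 of the 8 fits that left out 1 library (adjusted p up to 0.0923; the exception was Tet2-/- CLP replicate 2). The WT value of this pair was 1.56 (SE 0.50, adjusted p = 0.0798), called with DESeq2 (adjusted p = 0.0295) or without WT CLP replicate 5 (0.0223), and its difference of mean log2 CPM was 1.35 scaled and 0.55 on unscaled totals.

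Slamf1, which encodes the CD150 that separated the stem cell gates, served as the check of those gates. It had 45.7, 61.9 and 44.5 CPM in WT LT-HSCs and 0, 1.61 and 0 CPM in WT ST-HSCs, and 35.9 to 97.0 CPM in Tet2-/- LT-HSCs against 0 in all 4 Tet2-/- ST-HSC libraries. By the call rule Slamf1 passed for this pair in Tet2-/- (log2 fold change 11.2, SE 0.62, edgeR adjusted p = 0.00383) but not in WT. Of the SLAM family list, 11 genes with Slamf1 and Cd48 among them, 5 to 9 were tested in each genotype comparison and 1 was called. It was Ly9, 1 of 7 SLAM genes tested in CMPs, where 4.57% of all genes were called and most of them lower, with a log2 fold change in edgeR of -1.36 (SE 0.35, adjusted p = 0.0488). Ly9 encodes CD229, a self-binding SLAM receptor, and its level there was 4.08 ± 1.95 CPM in Tet2-/- and 10.4 ± 2.02 in WT (SD, n = 4). Erythroid markers were higher in the same Tet2-/- CMP libraries, as given with the Fc receptors, and Ly9 was also lower in MEPs than in CMPs, by log2 fold changes of -5.06 in WT and -2.73 in Tet2-/- (edgeR adjusted p of 0.00199 and 0.0229). The part of this in the Ly9 difference was not tested. In MEPs against CMPs, 5 of 7 tested SLAM genes were lower in WT (14.7% of all genes were called in either direction) and 4 of 7 in Tet2-/- (9.96%), with medians of -4.00 and -2.73 beside -0.068 and -0.049 over all genes.

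Cd34 RNA had its highest mean in ST-HSCs (709, 798 and 681 CPM in WT; 619, 707, 679 and 626 CPM in Tet2-/-) and its lowest in MEPs (9.89, 8.82, 24.8 and 5.42 CPM; 29.3, 20.5, 13.5 and 6.78 CPM), the gate set as CD34 negative. The lowest single library was WT CLP replicate 4, at 0.148 CPM. GMPs and CMPs, both gated on CD34, lay between 388 and 687 CPM, and in Tet2-/- the GMP libraries overlapped those of ST-HSCs. LT-HSCs, which were not gated on CD34, had 145, 115 and 163 CPM in WT and 214, 220, 113 and 140 CPM in Tet2-/-. No MEP library overlapped a CMP, GMP, LT-HSC or ST-HSC library of its genotype. Of all genes tested, 17.8% in WT and 14.4% in Tet2-/- were lower in MEPs than in CMPs without overlap, and 26.6% and 29% lower than in GMPs.

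In Cd34 RNA, MEPs were below CMPs by a log2 fold change of -5.44 in WT (SE 0.47, edgeR adjusted p = 9.20e-05) and -4.71 in Tet2-/- (SE 0.43, adjusted p = 0.000298), and below GMPs by a similar amount (GMP against MEP, 5.35 and 5.07, adjusted p of 1.24e-05 and 1.76e-05). GMPs and CMPs overlapped in WT and did not differ by the test (log2 fold change 0.048, SE 0.11, 95% interval -0.21 to 0.30), and in Tet2-/- GMPs were higher by 0.47 (SE 0.13, adjusted p = 0.0183), under the 2-fold rule. The difference of these contrasts between the genotypes, 0.42 (SE 0.89), was not called. For Cd34, LT-HSCs against ST-HSCs gave -2.39 in WT (SE 0.16, adjusted p = 0.00957) and -1.96 in Tet2-/- (SE 0.24, adjusted p = 0.0206). The WT call was lost without WT LT-HSC replicate 2 (adjusted p = 0.0729), WT ST-HSC replicate 3 (0.0741) or 5 (0.0510). The Tet2-/- call was lost without any 1 of the 4 ST-HSC replicates 2, 3, 4 and 5 (0.0657, 0.0747, 0.0653 and 0.0682) or without LT-HSC replicate 3 (0.0609) or 5 (0.0812). In the fit of all 46 libraries the adjusted p-values were 0.455 and 0.334, although the values themselves were -2.37 and -1.94.

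CLPs were not gated on CD34 and had 176, 88.1, 0.148 and 75.9 CPM in WT and 90.3, 127, 205 and 321 CPM in Tet2-/-. WT CLP replicate 4 was thus nearly without Cd34 RNA, and the same library had 0 CPM of Flt3. Cd34 was lower in Tet2-/- CLPs than in Tet2-/- ST-HSCs (log2 fold change -1.84, SE 0.37, edgeR adjusted p = 0.0222), and in WT the value was -3.08 (SE 1.38, adjusted p = 0.205), which was called without WT CLP replicate 4 (-2.66, adjusted p = 0.0100) and in the fit of all 46 libraries (0.00135). Leaving out Tet2-/- ST-HSC replicate 2, 3, 4 or 5 (adjusted p of 0.0547, 0.0677, 0.0634 and 0.0654) or Tet2-/- CLP replicate 3 or 4 (0.0507 and 0.0555) ended that call. Of its relatives Podxl and Podxl2, Podxl was called lower in Tet2-/- GMPs than in Tet2-/- CMPs and MEPs and lower in Tet2-/- CLPs than in Tet2-/- CMPs, and no gene of the CD34 family list was called between the genotypes.

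The 2 Fc receptor genes had their highest means in GMPs, the gate with high CD16 and CD32. For Fcgr2b in WT the GMP and CLP libraries overlapped, with 1 CLP library at 127 CPM. Fcgr3 had 180, 211, 289 and 281 CPM in WT GMPs and 188, 167, 149 and 290 CPM in Tet2-/- GMPs. In CMPs, gated at an intermediate level, it had 18.2, 13.6, 19.7 and 22.1 CPM in WT and 11.1, 12.8, 11.4 and 13.7 CPM in Tet2-/-. MEPs, LT-HSCs and ST-HSCs had less than 1 CPM in every library. The steps from MEPs to CMPs to GMPs were each without overlap in both genotypes. From MEPs to CMPs 17.8% of all genes tested in WT and 14.4% in Tet2-/- rose in this way, and from CMPs to GMPs 15.7% and 18.8%.

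Fcgr2b had a flatter profile. It had 104, 109, 122 and 130 CPM in WT GMPs and 96.2, 117, 121 and 125 CPM in Tet2-/- GMPs, against 38.3, 47.5, 36.9 and 40.1 CPM in WT CMPs and 28.0, 22.9, 21.2 and 29.3 CPM in Tet2-/- CMPs. It was also found in ST-HSCs (8.58 to 16.4 CPM in WT, 6.40 to 12.1 CPM in Tet2-/-), where Fcgr3 was at most 0.191 CPM. Per kb of exon, Fcgr3 had 138 CPM per kb in WT GMPs and 10.6 in WT CMPs, and Fcgr2b 20.1 and 7.03. Fcgr3 was therefore the more abundant transcript per length in GMPs, whereas the 2 levels lay closer in CMPs (7.83 to 12.7 CPM per kb for Fcgr3 and 6.37 to 8.20 for Fcgr2b).

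GMPs exceeded CMPs in Fcgr3 by a log2 fold change of 3.75 in WT (SE 0.22, edgeR adjusted p = 7.20e-06) and 4.04 in Tet2-/- (SE 0.22, adjusted p = 9.12e-06), and in Fcgr2b by 1.55 (SE 0.14, adjusted p = 5.36e-05) and 2.21 (SE 0.15, adjusted p = 3.62e-05). In the fit of all 46 libraries the adjusted p-values were 0.161 and 0.0819 for Fcgr3 and 0.532 and 0.242 for Fcgr2b, with log2 fold changes of 3.71 and 4.02, and 1.52 and 2.17. MEPs were below CMPs in both genes, by -5.62 and -6.05 for Fcgr3 (adjusted p of 0.000971 and 0.00259) and -4.28 and -3.59 for Fcgr2b (0.00537 and 0.000178). Of the 6 genes on the list of Fc gamma receptors and their partners 5 were tested in GMPs against MEPs, and 4 of them, Fcgr2b, Fcgr3, Fcgr4 and Fcer1g, were called higher in GMPs in both genotypes, where 30.4% (WT) and 33.4% (Tet2-/-) of all genes were called in either direction. Fcer1g encodes the signalling chain that activating Fc receptors need at the membrane.

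In CMPs the 4 Tet2-/- libraries lay below the 4 WT libraries for Fcgr2b (means 25.4 ± 3.90 and 40.7 ± 4.70 CPM, SD, n = 4), as they did for 9.02% of all genes tested. The difference of -0.69 on the log2 scale (SE 0.16, 1.61-fold, edgeR adjusted p = 0.0349) passes the p but not the 2-fold part of the call. Fcgr3 pointed the same way (12.2 ± 1.23 against 18.4 ± 3.57 CPM), with a log2 fold change of -0.60 (SE 0.20 and adjusted p = 0.131), with 3 of 4 Tet2-/- libraries below every WT library. Leaving out 1 library gave edgeR adjusted p-values of 0.0413 (without Tet2-/- CMP replicate 5) to 0.102 (without WT CMP replicate 3) for Fcgr2b, and without any other single library the p was 0.0581 or more. The content of the CMP libraries differed as well: 10 erythroid markers summed to 2745 to 5599 CPM in Tet2-/- and to 433 to 1574 CPM in WT, 10 neutrophil markers to 11.3 to 16.7 and 7.89 to 10.2 CPM, and the mitochondrial share was 7.85% to 8.37% and 5.94% to 6.57%, each without overlap. In every CMP library 1 of the erythroid markers was at 0, and 4 to 6 of the neutrophil markers were. The summed GMP markers overlapped (3483 to 3803 and 3785 to 5288 CPM). The part of these shifts in the lower Fc receptor RNA was not tested. In GMPs neither differed beyond the spread, with -0.33 (95% interval -0.81 to 0.16; -0.55 without Tet2-/- GMP replicate 5 and -0.19 without WT GMP replicate 4) for Fcgr3 and -0.061 (-0.34 to 0.21) for Fcgr2b.

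**Figure D3:**
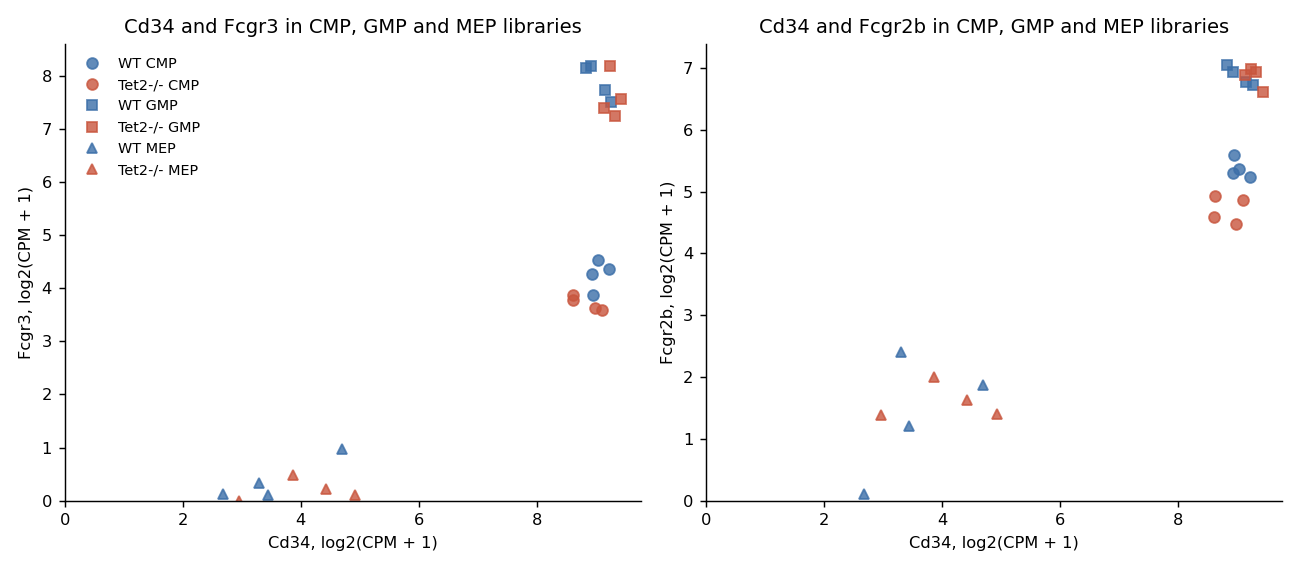
Cd34 RNA (x axis) against Fcgr3 (left) and Fcgr2b (right) RNA in the 24 CMP, GMP and MEP libraries, on log2(CPM + 1) scales, with 1 point per library. The 3 gates form separate clouds in both panels: MEPs are low on both axes, and CMPs and GMPs differ in the Fc receptor RNA, while their Cd34 ranges overlap in WT and in Tet2-/- GMPs lie above CMPs (560 to 687 against 388 to 549 CPM).

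Ptprc RNA was found in every library, and CD45 was in no gate. Its means in WT were 358 ± 52.3 CPM in CLPs, 294 ± 140 in ST-HSCs, 239 ± 39.1 in LT-HSCs, 163 ± 21.5 in CMPs, 160 ± 16.5 in GMPs and 49.1 ± 11.9 in MEPs (SD, n = 4 or 3). In Tet2-/- the order was the same but for GMPs and CMPs, with 633 ± 352, 345 ± 103, 290 ± 64.3, 165 ± 17.5, 187 ± 36.7 and 55.1 ± 6.21 CPM for the populations as listed. MEPs were lowest in both genotypes without overlap. Of all genes tested, 17.8% in WT and 14.4% in Tet2-/- were lower in MEPs than in CMPs without overlap, and 26.6% and 29% lower than in GMPs. In Ptprc, MEPs were below CMPs by a log2 fold change of -1.74 in WT (SE 0.19, edgeR adjusted p = 0.000304) and -1.58 in Tet2-/- (SE 0.13, adjusted p = 0.000203). The Tet2-/- CLP libraries had 1115, 385, 675 and 356 CPM, and CLPs were above CMPs by 1.28 in WT (SE 0.17, adjusted p = 0.00278) and 1.97 in Tet2-/- (SE 0.38, adjusted p = 0.0153). The WT value depended on the scaling: the difference of mean log2 CPM was 1.13 scaled and 0.32 on unscaled totals, where the two-sided exact permutation p was 0.257, and in Tet2-/- it was 1.79 and 1.505. The Tet2-/- call was lost without Tet2-/- CMP replicate 2, 3 or 5 (adjusted p of 0.0553, 0.0513 and 0.0565). Tet2-/- CMPs were below Tet2-/- ST-HSCs at -1.09 (SE 0.21, adjusted p = 0.0117), which came to -0.88 and under 2-fold without Tet2-/- ST-HSC replicate 3. In WT the value was -0.85 (SE 0.30, adjusted p = 0.0889) and was not called. It was -0.44 without WT ST-HSC replicate 3, and -1.14 and called without replicate 5 (adjusted p = 0.0172). The genotype values ran from 0.0052 in CMPs to 0.78 in CLPs (SE 0.12 and 0.40), and none was called. Without Tet2-/- CLP replicate 2, the library with 1115 CPM, the CLP value was 0.36, and the difference of mean log2 CPM there was 0.68 scaled and 1.17 unscaled. Among the CD45 substrates and partners list, 9 genes including the Src kinases Lyn, Fyn and Lck, none was called between the genotypes. In CLPs against CMPs 2 of 8 tested list genes were called in each genotype, both higher: Ptprc itself and Lck, the Src kinase of T cells (15.4% of all genes were called in WT and 9.36% in Tet2-/-).

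Thy1 RNA was a feature of the CLP libraries. The WT CLP libraries had 11.4, 10.7, 14.1 and 40.9 CPM and the Tet2-/- CLP libraries 117, 8.59, 7.01 and 10.1 CPM, while no library of the other populations exceeded 2.19 CPM. For CLPs against CMPs, 9.46% of all genes tested in WT and 8.16% in Tet2-/- were higher without overlap. In Thy1, CLPs were above CMPs by a log2 fold change of 5.22 in WT (SE 1.22, edgeR adjusted p = 0.0188) and 6.35 in Tet2-/- (SE 1.20, adjusted p = 0.0143). Without WT CMP replicate 4 or 5 the WT adjusted p was 0.0609 or 0.0534, and without Tet2-/- CMP replicate 2, 4 or 5 the Tet2-/- adjusted p was 0.0508, 0.0525 or 0.0555. Against ST-HSCs the WT value was 3.35 (SE 0.85, adjusted p = 0.0365), lost without WT ST-HSC replicate 2, 3 or 5 (0.135, 0.119 and 0.123) or WT CLP replicate 5 (0.0636) and in the fit of all 46 libraries (0.123), and the Tet2-/- value was 5.85 (SE 1.74, adjusted p = 0.0814, or 0.00749 in the fit of all 46 libraries). Without Tet2-/- CLP replicate 2, the library with 117 CPM, the Tet2-/- values were 3.75 against ST-HSCs and 4.25 against CMPs. Every Tet2-/- ST-HSC library (0.215, 0, 0.745 and 1.43 CPM) lay below every WT ST-HSC library (1.67, 1.98 and 2.19 CPM), as did 4.86% of all genes tested, and the log2 fold change of -1.63 had an SE of 1.49 (edgeR adjusted p = 0.999) and was -2.46 without Tet2-/- ST-HSC replicate 5. The same ST-HSC libraries also separated in the mitochondrial share (10.0% to 13.1% in Tet2-/- and 8.73% to 9.02% in WT) and in the sum of 9 macrophage and monocyte markers (8.65 to 19.3 and 20.1 to 29.8 CPM, with 0 to 5 of them at 0 in a library), whose part in the Thy1 difference was not tested.

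RNA of GMP markers varied widely among the CLP libraries. Whether it came from the sorted CLPs or from other cells was not tested. Of 6 GMP markers, 0 to 2 were at 0 in a CLP library, and they summed to 3119, 1118, 4.65 and 28.4 CPM in WT replicates 2 to 5 and to 2.60, 12364, 2269 and 4256 CPM in Tet2-/- replicates 2 to 5. Mpo, the myeloperoxidase of granule-forming cells, had 1807, 739, 2.61 and 27.5 CPM and 1.69, 7173, 1610 and 2300 CPM in the same order. Fcgr3 had 57.5, 121, 0.119 and 0 CPM in the WT and 0.0515, 88.9, 9.38 and 46.6 CPM in the Tet2-/- CLP libraries. The 3 libraries with the least Mpo were thus the 3 with the least Fcgr3. Among the remaining libraries the order differed: WT replicate 3 had less Mpo than Tet2-/- replicate 4 (739 and 1610 CPM) but more Fcgr3 (121 and 9.38 CPM). Fcgr2b was 127, 59.8, 51.0 and 33.7 CPM in WT and 0.116, 38.0, 19.9 and 41.2 CPM in Tet2-/-, so 2 libraries with little Fcgr3 still had Fcgr2b. WT CLPs were above ST-HSCs in Fcgr2b (log2 fold change 2.36, SE 0.52, edgeR adjusted p = 0.0227), lost without WT ST-HSC replicate 2, 3 or 5 (0.0867, 0.0794 and 0.0830), in the fit of all 46 libraries (0.127) and without the filter on low counts (0.0531). The difference of mean log2 CPM of Fcgr2b there was 2.21 scaled and 1.42 on unscaled totals. In Tet2-/- the same pair gave 1.504 (SE 1.17, adjusted p = 0.538) and was not called. Without Tet2-/- CLP replicate 2, the library with 0.116 CPM, the value was 1.91 and was called (adjusted p = 0.0406).

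Other marker lists were also present in the CLP libraries. The 11 T and NK cell markers summed to 488 to 1061 CPM in WT and 706 to 3186 CPM in Tet2-/- CLPs, the highest being Tet2-/- replicate 2, the library with the most Thy1 and Ptprc, and Cd3e was at 0 in all 8. These sums were not particular to CLPs. In GMPs the T and NK cell markers summed to 600 to 770 CPM in WT and 524 to 784 CPM in Tet2-/-. The 9 B cell markers summed to 585 to 1253 and 307 to 684 CPM, and the 9 macrophage and monocyte markers, which include Ly6c2, to 761 to 2011 and 243 to 1593 CPM. GMPs had similar sums of the macrophage and monocyte markers, with 1008 to 1754 CPM in WT and 1217 to 1674 CPM in Tet2-/-. In CLPs the 7 lymphoid progenitor markers summed to 1572 to 2002 and 598 to 2875 CPM. The 6 megakaryocyte markers summed to 0.154, 1499, 0.559 and 411 CPM in Tet2-/- replicates 2 to 5 and to 0.187 to 8.41 CPM in WT, with 0 to 5 of them at 0 in a library. The 8 HSC markers summed to 9.84, 90.2, 35.8 and 44.0 CPM in Tet2-/- and 2.39 to 27.1 CPM in WT, with 2 to 7 at 0. Both were highest in Tet2-/- CLP replicate 3, the CLP library with the most Kit. Tet2-/- CLP replicate 2 had the fewest genes detected of all libraries, 13754, and a mitochondrial share of 12.5%, against 2.41% to 7.82% in the other CLP libraries. Il7r, the gene of the CD127 gate, had 373, 553, 613 and 513 CPM in WT and 1105, 256, 233 and 342 CPM in Tet2-/- CLPs and was at most 10.4 CPM in every other library. The part of these marker sums and library measures in the Kit, Cd34, Fc receptor, Ptprc and Thy1 values of CLPs was not tested.

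**Figure D4:**
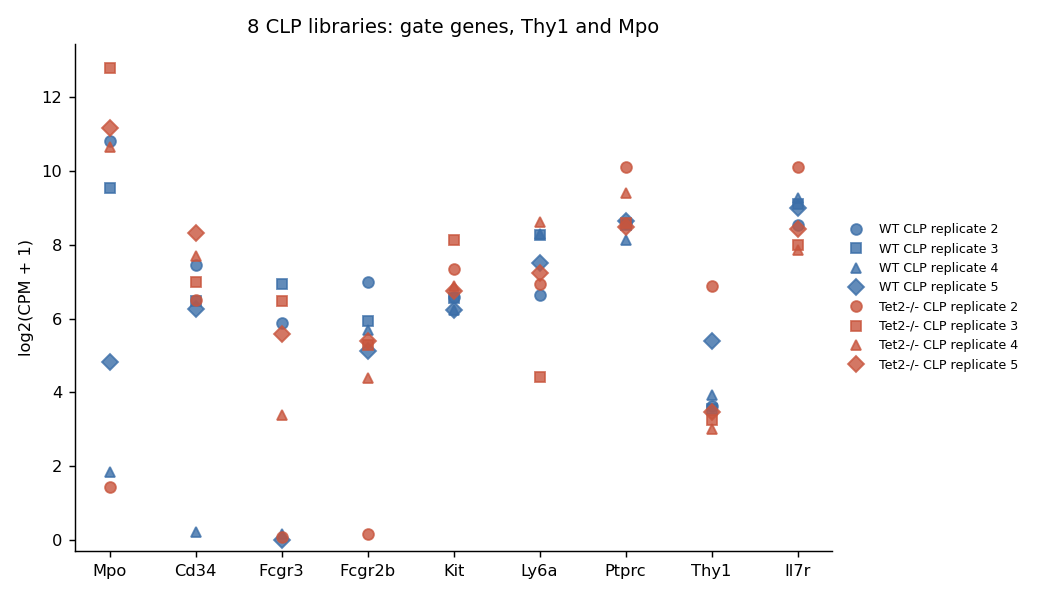
The 8 CLP libraries, identified by genotype (colour) and replicate (symbol), for Mpo, 7 gate or typing genes and Il7r on a log2(CPM + 1) scale. Mpo and Fcgr3 separate the libraries into the same high and low ones, Cd34 is near 0 in WT replicate 4, and Thy1, Ptprc and Il7r are highest in Tet2-/- replicate 2.

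No member passed the call between the genotypes in any population. Of 45 tests with edgeR, 5 had an unadjusted p under 0.05 (2 in CMPs and 1 each in GMPs, MEPs and CLPs), and DESeq2 called none either. The shares of all genes that passed the call in these comparisons are those given with the Kit signalling list, from 0.00766% in CLPs to 4.57% in CMPs. They do not apply to the unadjusted p, for which no share of all genes is given here. The median log2 fold changes of the members tested were 0.30 in LT-HSCs, 0.26 in ST-HSCs, 0.19 in GMPs, -0.17 in CMPs, 0.69 in CLPs and 0.15 in MEPs, against 0.026 to 0.074 over all genes. Intervals show how far this goes: in GMPs the 95% intervals of Cd34 (-0.061 to 0.45), Cd48 (-0.046 to 0.41) and Ptprc (-0.12 to 0.50) were narrow, whereas in LT-HSCs that of Cd48 ran from -4.00 to 2.50.

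**Figure D5:**
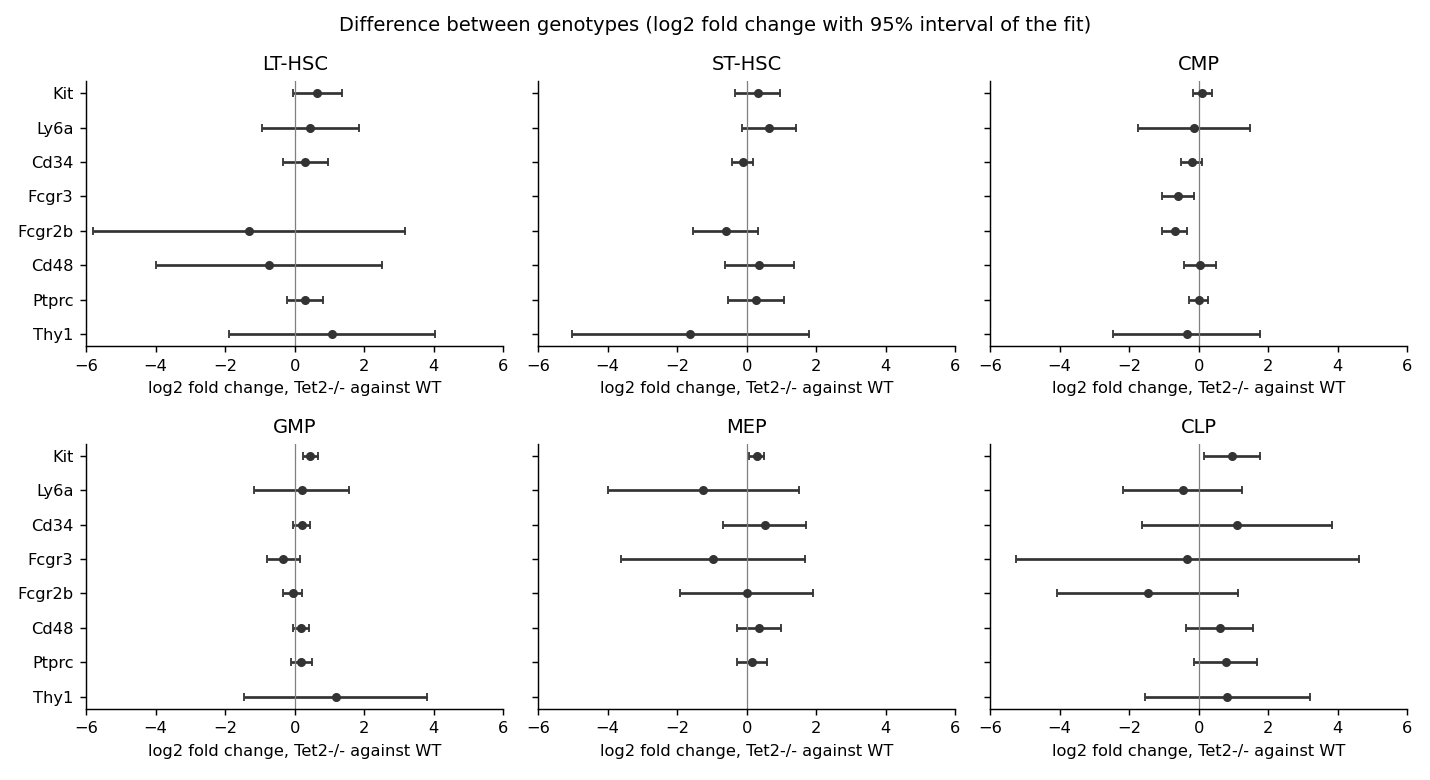
Log2 fold change of each member, Tet2-/- against WT, in the 6 populations, with the 95% interval of the edgeR fit (x axis). Members that did not pass the count filter have no point, and the intervals are narrow for abundant genes in CMPs, GMPs and MEPs and wide in CLPs and for rare transcripts.

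Nor did any gate contrast of a member differ between the genotypes by the call rule when the difference itself was tested in the fit of all 46 libraries. The shares of all genes called were 0.00447% for LT-HSC against ST-HSC, 0.331% for CMP against ST-HSC, 3.16% for CLP against ST-HSC, 0.00447% for GMP against CMP, 0% for MEP against CMP, 0.0939% for GMP against MEP and 3.77% for CLP against CMP. DESeq2 called none of the members. Of them, 2 had an unadjusted p under 0.05, a lower bar than that of these shares, both for CLP against CMP. They were Kit, at 0.82 (SE 0.32, edgeR adjusted p = 0.160), and Ptprc, at 0.77 (SE 0.37, adjusted p = 0.296), in both cases with a higher CLP level relative to CMPs in Tet2-/-. Kit came to 0.45 without Tet2-/- CLP replicate 3 and Ptprc to 0.33 without Tet2-/- CLP replicate 2. As differences of mean log2 CPM they were 0.78 and 0.66 scaled, and 1.30 and 1.19 on unscaled totals.

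Of 8 lineage cocktail genes, 1 to 5 were tested per population and none was called between the genotypes, and the same held for Slamf1, Il7r and Flt3.

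The genes whose log2 CPM followed each member most closely over the 46 libraries, among genes with a mean of at least 10 CPM, were Tnfsf13 for Kit (Pearson r = 0.80), S100a4 for Ly6a (0.94), Alox5ap for Cd34 (0.91), Ctsg for Fcgr3 (0.96), Spns3 for Fcgr2b (0.85), Itgal for Cd48 (0.77), Wls for Ptprc (0.94) and Ets1 for Thy1 (0.85). Next in order came Huwe1, S100a6, Runx2, F13a1, Cnpy3, Ccr2, a row whose symbol the table gives as a date, and Traf1. These values describe 46 libraries of 12 groups that share their populations, and no p is attached to them. Among the members themselves the highest r was between Ly6a and Ptprc (0.84), followed by Fcgr3 and Fcgr2b (0.72).

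A second table of 9 LT-HSC libraries, 3 each from WT, Sting-/- and Tet2;Sting DKO mice, was scaled on its own and is given as values only. Kit had 74.2 to 240 CPM in WT, 36.3 to 222 in Sting-/- and 154 to 200 in DKO libraries. Cd34 had 265 to 363, 277 to 387 and 188 to 353 CPM and Ly6a 106 to 192, 98.7 to 280 and 241 to 495 CPM. Cd48 was at or below 0.0969 CPM in the 3 Sting-/- libraries. It had 22.9, 0.0584 and 0 CPM in WT and 29.2, 26.6 and 0.441 CPM in DKO libraries. Slamf1 had 27.6 to 56.0 CPM in WT, but 1 Sting-/- library was at 0 and 1 DKO library at 0.0928 CPM, against the CD150 gate of these cells. Fcgr3 and Thy1 were under 0.1 CPM in all but 1 library each, with 7.01 CPM of Fcgr3 in a WT and 6.57 CPM of Thy1 in a DKO library.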

How the data were processed

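Populations were sorted from mouse bone marrow and sequenced by a SMART-Seq2 type protocol. The deposited values are raw read counts per gene, which the authors made after trimming with Trim Galore (0.5.0 in the methods, 0.6.7 in the submitters' processing notes) and alignment with HISAT2 (2.1.0 in the methods, 7.5.0 in the notes) to mm10. The notes also list mm9. The counting program is not given in the sources used here. All columns were mapped to samples by their labels (0 unmapped). Counts were scaled to CPM (counts relative to the library's TMM-scaled total). Each pair of groups was fitted on its own with edgeR 4.0.16 (filterByExpr, glmQLFit, glmQLFTest; R 4.3.3, limma 3.58.1), and Benjamini-Hochberg adjustment ran over all genes tested. Each SE is the log2 fold change divided by the root of its F statistic, and 95% intervals use the t distribution with the degrees of freedom of the fit. A call needed an adjusted p under 0.05 and at least a 2-fold change. Differences of a gate contrast between the genotypes and the mean genotype effect came from 1 fit of 46 libraries with 12 group means. Single values were compared by two-sided exact permutation tests on log2 CPM with a prior count of 2, whose p-values are unadjusted unless stated. The scripts were tested on simulated counts. Depth was 50458473 to 102148079 counts per library. The cDNA of few cells was amplified before sequencing, so reads are not independent molecules. Counting error was not compared with the spread between libraries. Alternatives were DESeq2 1.42.0, RLE size factors, fitting every gene with a count, 1 fit for all libraries, a replicate block, no fold threshold and leaving out each library. The named genes are the 8 members in every comparison, the called genes of 8 lists of related genes, and the 2 genes most correlated with each member at a mean of at least 10 CPM. The members and lists were chosen with earlier results of these data known. Positions and lengths came from GENCODE M21 (GRCm38). A second table of 35976 genes was scaled separately, and 2 of its lines were dropped. Some genes of the lists are not reported here.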

Additional observations from a re-analysis of the deposited data

Results flagged for a closer look

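In 8 of 80 groups of 4 libraries, 1 library lay far from the other 3 by Dixon's criterion, which chance gives in about 1 in 20 groups of normally distributed values. That rate does not hold where the other 3 libraries are tied at 0, so the 8 of 80 cannot be read against it. Most of the flagged values were of rare transcripts. Thy1 was 116.9 CPM in Tet2-/- CLP replicate 2, against 7.01 to 10.1 CPM in the other 3, and 40.93 CPM in WT CLP replicate 5, against 10.7 to 14.1 CPM. Ly6a was 4.782 CPM in Tet2-/- GMP replicate 3 (0.569 to 1.28 CPM in the others), 0.4434 CPM in Tet2-/- MEP replicate 2 (0.121 to 0.176 CPM) and 1.775 CPM in WT MEP replicate 3 (0 to 0.279 CPM). Without Tet2-/- GMP replicate 3 the call of Ly6a in Tet2-/- GMPs against MEPs was lost (edgeR adjusted p = 0.0545). Fcgr2b was 4.744 CPM in Tet2-/- LT-HSC replicate 4 (0 to 0.629 CPM in the others). Fcgr3 was 0.191 CPM in Tet2-/- ST-HSC replicate 3 and Thy1 0.1092 CPM in WT MEP replicate 3, with 0 in the other 3 libraries of each group.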

How the results depend on the processing

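Of 108 comparisons of a member between populations, 50 were called, and 55 were with DESeq2, 50 with RLE scaling, 47 without the low-count filter, 41 with all 46 libraries in 1 fit and 56 with no fold threshold. The fit of all 46 libraries ended 16 of the 50 calls and the fit without the filter 3, and not all of these are named here. Leaving out 1 library gave 45 (without WT ST-HSC replicate 3) to 53 (without WT MEP replicate 3) calls. Between the genotypes, 0 members were called under each of these and 2 with no fold threshold, Kit in GMPs and Fcgr2b in CMPs. Replicate numbers were not taken as pairs, since in no comparison did every pair of same-numbered libraries correlate above 0.1. In 5 comparisons within a genotype every library nevertheless correlated best with its own number (LT-HSC and CMP against ST-HSC in WT, GMP against CMP in both genotypes and MEP against CMP in Tet2-/-), a hint from the data and not from the design. With a replicate block, 38 comparisons between populations and 0 between the genotypes were called, and the mean difference of Kit was 0.45 (edgeR adjusted p = 0.000479). The coding of the block in that fit of 46 libraries was chosen after its first value had been seen. The 13 calls lost with the block, all in the same direction, were Cd34 in LT-HSC against ST-HSC (adjusted p of 0.103 in WT and 0.102 in Tet2-/-), Kit (0.0622), Ly6a (0.0670), Fcgr2b (0.153) and Thy1 (0.189) in WT CLP against ST-HSC, Cd34 (0.111) and Cd48 (0.167) in Tet2-/- CLP against ST-HSC, Thy1 in CLP against CMP (0.0769 in WT and 0.0885 in Tet2-/-), Ly6a (0.101) and Ptprc (0.0866) in Tet2-/- CLP against CMP, and Ly6a in Tet2-/- GMP against MEP (0.0721). With 1 value per genotype and replicate number, chosen after seeing the data as was the fit without CLPs, it was 0.4412 (exact permutation p = 0.0571). The mean difference of Ptprc, 0.28 (adjusted p = 0.135), had adjusted p-values of 0.0371 with DESeq2 and 0.0264 to 0.229 with 1 library left out. The Ptprc difference in CMPs, near 0, ran from -0.0652 to 0.092 when 1 library was left out and was below 0 without Tet2-/- CMP replicate 3 (-0.0012) or 4, WT CMP replicate 4 (-0.0589) or 5 (-0.0295), and on unscaled totals (-0.0162). In ST-HSCs it ran from -0.0292 (without WT ST-HSC replicate 5) to 0.6552 (without replicate 3). Other values near 0 or of few counts also turned: Fcgr2b in GMPs between the genotypes ran from -0.1183 (without WT GMP replicate 2) to 0.0118 (without Tet2-/- GMP replicate 2), Cd48 in LT-HSCs from -2.3532 (without Tet2-/- LT-HSC replicate 3) to 0.0391 (without WT LT-HSC replicate 5), and Cd34 in WT GMP against CMP from -0.0363 (without WT GMP replicate 2) to 0.112 (without WT CMP replicate 4), with 0.006 scaled and -0.0155 on unscaled totals as differences of mean log2 CPM. The cause of these moves with single libraries was not tested. The moves on unscaled totals follow by construction from the scaling factors. Unscaled totals, tried for the calls between populations after seeing the data, turned no direction among the called values, and the unadjusted exact permutation p of 2 members passed 0.05 only scaled: Ptprc in WT CLP against CMP (0.257 unscaled) and Fcgr2b in WT CLP against ST-HSC (2.21 scaled and 1.42 unscaled, p = 0.0571). Adjusted over the 112 permutation tests between populations, the scaled p of each was 0.0525, which does not pass 0.05. Other called values in WT CLP that moved by over 1.5 times were Kit against ST-HSC (-1.40 to -2.20) and against CMP (-1.27 to -2.09) and Ly6a against ST-HSC (2.07 to 1.28), as did the uncalled Cd48 against ST-HSC (1.35 to 0.55). The uncalled values not recomputed shift by the same amount in WT CLP, -0.80 against ST-HSC and -0.81 against CMP. In Tet2-/- CLP the shift is -0.26 against ST-HSC and -0.28 against CMP. Such a shift can turn a value that is smaller than it. In WT LT-HSC against ST-HSC, 3 libraries a group cannot give an exact permutation p below 0.10. Across the comparisons, transcripts under 1 CPM in both groups have wide intervals.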
